A study of Rattus norvegicus with 8 samples.

Results

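The 10 enzymes that carry squalene to cholesterol were examined in rat ovaries under androgen excess. The genes Sqle, Lss, Cyp51, Tm7sf2, Msmo1, Nsdhl, Hsd17b7, Ebp, Sc5d and Dhcr7 were chosen by their place in the pathway, after squalene. All 10 were measured, out of 14217 genes that had a probe set annotated to 1 gene symbol, and together they had 16 such probe sets. Female Sprague-Dawley rats of the DHT group carried a silicone capsule that released the androgen dihydrotestosterone (DHT) for 12 weeks, rats of the control (CTL) group carried an empty capsule for the same time, and ovarian cortex was taken at 15 weeks of age. RNA of 3 single animals per group was read on Affymetrix rat genome expression arrays, and 1 further array per group held a pool of equal amounts of RNA from those 3 animals. DHT is an androgen that aromatase cannot convert to estrogen, and the treated rat serves as a model of polycystic ovary syndrome. Corpora lutea, per the methods, were a common feature of the CTL ovaries and rare or missing after DHT. The question was which of these transcripts differed between DHT and CTL ovaries, and by how much.

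Cholesterol is made in the endoplasmic reticulum, where squalene is oxidised, folded into the sterol lanosterol and then trimmed of methyl groups, reduced and rearranged step by step. Most genes of the pathway are switched on together by the sterol regulatory element-binding proteins when sterols in the membrane run low, through sterol response elements that often lie near CCAAT boxes and GC boxes. In the ovary, cholesterol is the starting material of progesterone, androgens and estrogens, and luteal cells, which make progesterone after ovulation, use large amounts of it. The products of Cyp51 and Tm7sf2 are known as meiosis-activating sterols, and Hsd17b7 was first cloned from rat corpus luteum as a prolactin receptor-associated protein.

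The promoters of 6 of the enzymes are shown because they belong to the genes called lower in DHT ovaries (Cyp51 and Tm7sf2) or hold a match to the sterol response element core. Each window runs from 250 bases before to 50 bases after the gene start in RefSeq, on build GRCr8, and is written in the direction of the gene from 5′ to 3′. Capitals mark matches to the core TCACNCCAC with 1 mismatch, on either strand, and the CCAAT box, which reads ATTGG where it lies on the opposite strand.
Cyp51 (chr4:30991443-30991742, plus strand): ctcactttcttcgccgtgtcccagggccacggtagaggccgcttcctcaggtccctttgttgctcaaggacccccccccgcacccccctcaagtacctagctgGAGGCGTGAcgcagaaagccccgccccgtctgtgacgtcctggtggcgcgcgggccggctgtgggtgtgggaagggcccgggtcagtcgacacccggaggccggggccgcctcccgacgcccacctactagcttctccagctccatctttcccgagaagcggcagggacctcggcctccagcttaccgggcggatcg
Tm7sf2 (chr1:212789492-212789791, minus strand): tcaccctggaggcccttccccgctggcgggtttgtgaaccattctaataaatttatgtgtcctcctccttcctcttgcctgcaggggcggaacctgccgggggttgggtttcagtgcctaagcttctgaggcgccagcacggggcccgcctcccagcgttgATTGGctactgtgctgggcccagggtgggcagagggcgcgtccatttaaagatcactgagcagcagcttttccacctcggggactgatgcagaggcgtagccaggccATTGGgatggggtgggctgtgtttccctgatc
Msmo1 (chr16:29746863-29747162, plus strand): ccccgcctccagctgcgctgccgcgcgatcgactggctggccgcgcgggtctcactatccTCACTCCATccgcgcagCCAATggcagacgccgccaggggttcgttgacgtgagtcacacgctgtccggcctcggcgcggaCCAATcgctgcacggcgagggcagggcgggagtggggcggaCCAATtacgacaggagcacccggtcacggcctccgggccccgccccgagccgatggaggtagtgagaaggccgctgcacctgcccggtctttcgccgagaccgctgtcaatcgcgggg
Nsdhl (chrX:155817110-155817409, plus strand): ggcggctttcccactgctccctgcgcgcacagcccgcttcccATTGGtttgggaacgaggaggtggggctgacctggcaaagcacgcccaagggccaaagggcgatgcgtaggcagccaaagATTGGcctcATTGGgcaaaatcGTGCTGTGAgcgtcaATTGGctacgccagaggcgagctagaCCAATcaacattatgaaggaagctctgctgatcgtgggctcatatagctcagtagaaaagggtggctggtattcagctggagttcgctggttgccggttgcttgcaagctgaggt
Hsd17b7 (chr13:84722705-84723004, minus strand): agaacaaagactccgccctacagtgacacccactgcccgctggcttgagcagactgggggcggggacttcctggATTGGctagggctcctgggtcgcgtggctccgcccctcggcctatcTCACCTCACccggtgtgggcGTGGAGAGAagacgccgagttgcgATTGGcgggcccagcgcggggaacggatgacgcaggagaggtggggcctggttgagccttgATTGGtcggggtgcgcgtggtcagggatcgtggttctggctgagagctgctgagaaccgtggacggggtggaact
Ebp (chrX:16971212-16971511, plus strand): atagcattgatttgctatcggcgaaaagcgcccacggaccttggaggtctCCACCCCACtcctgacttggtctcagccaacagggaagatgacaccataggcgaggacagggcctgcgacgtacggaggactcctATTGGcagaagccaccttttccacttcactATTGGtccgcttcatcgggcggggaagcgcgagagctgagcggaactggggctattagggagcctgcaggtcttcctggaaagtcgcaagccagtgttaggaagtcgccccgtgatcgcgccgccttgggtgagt
The sterol response matches lie in the promoters of Cyp51, Msmo1, Nsdhl, Hsd17b7, which had 2, and Ebp, and the Tm7sf2 window held CCAAT boxes without such a match. These letters were searched for only, and nothing on the arrays measured binding of a factor to them.

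The arrays were alike in their median log2 value, which was between 2.97 and 3.03, except CTL replicate 3, at 3.25. Background was set at the 95th percentile of 29 olfactory, vomeronasal and taste receptor probe sets, and it lay between 2.67 and 3.09 on the log2 scale. The 3' to 5' difference of the Gapdh control probe sets, a sign of how much of the transcript's 5' end the labelled RNA still covered, was 2.99 to 3.98 in the DHT animals. In CTL replicates 1, 2 and 3 it was 0.395, 0.617 and 3.49, so that among single animals it moved with the groups apart from CTL replicate 3. On the pooled arrays it was 3.72 for DHT and 2.62 for CTL. Granulosa cell markers such as Inha (9.0 to 12.08) and Foxl2 (8.42 to 8.91) were far above background on all 6 arrays. Oocyte genes differed, with Zp1 and Bmp15 near background on all 6 and Zp2 (3.86 to 6.03) above it on all 6.

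All 10 enzymes had a lower mean in DHT than in CTL ovaries, and for 9 of them the highest DHT animal was below the lowest CTL animal. Cyp51, the sterol demethylase, and Tm7sf2, the reductase that acts on its product, fell in DHT ovaries, and the other 8 were not called in either direction. The median log2 fold change of the 10 enzymes, DHT minus CTL, was -3.10, beside -0.012 over all 14217 genes. The call required at least a 2-fold difference with a limma p of at most 0.01 and a false discovery rate of at most 10%, with each gene represented by its brightest probe set. By that rule 0.429% of all genes were called lower, and 0.351% of all probe sets. Complete separation of the groups in this direction was met by 6.81% of all genes. A further 7 enzymes, Sqle, Lss, Msmo1, Nsdhl, Hsd17b7, Ebp and Sc5d, were lower by 2-fold or more at an unadjusted p of 0.05 or less without passing the call, a limit that 1.77% of all genes met and 9 of the 10 enzymes. The calls of Cyp51 and Tm7sf2 were lost when DHT replicate 1, 2 or 3 or CTL replicate 2 was left out, with adjusted p between 0.107 and 0.268 in limma, and their log2 fold changes then stayed between -4.36 and -2.72. With the Gapdh 3' to 5' difference of each array as a covariate, the same 2 enzymes were called, 5 instead of 9 had an unadjusted p under 0.05, and the median of the 10 was -2.31, in a fit that leans on CTL replicate 3.

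**Figure D1:**
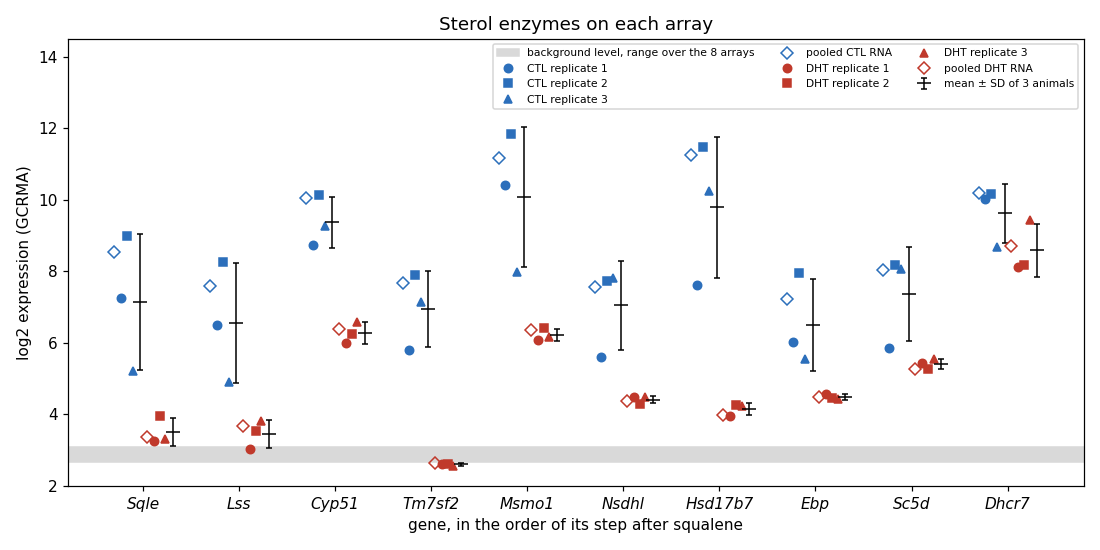
Log2 expression (GCRMA, vertical axis) of the brightest probe set of each enzyme (horizontal axis, in pathway order) on every array. Filled points are single animals with mean ± SD (n = 3), open diamonds are arrays of pooled RNA, and the grey band is the range of the background level over the 8 arrays. The DHT animals lie close together and below the CTL animals for every enzyme except Dhcr7, where DHT replicate 3 (9.45) is above CTL replicate 3 (8.68).

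Sqle and Lss act first after squalene: squalene epoxidase (Sqle) adds the oxygen, and lanosterol synthase (Lss) closes the rings. Sqle read 3.27, 3.95 and 3.30 log2 units in DHT replicates 1, 2 and 3 and 7.25, 9.0 and 5.20 in CTL replicates 1, 2 and 3. The groups did not overlap, and CTL replicate 3 was closest to the DHT animals. The means were 3.51 ± 0.38 in DHT and 7.15 ± 1.90 in CTL (SD, n = 3 each), and the log2 fold change was -3.64 ± 0.98 (SE), with a limma p of 0.0129 and an adjusted p of 0.228. Without CTL replicate 3, Sqle was called lower, at -4.62 with an adjusted p of 0.0417.

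Lss read 3.03, 3.52 and 3.81 in DHT and 6.51, 8.27 and 4.91 in CTL replicates 1, 2 and 3. The order of the CTL animals was that of Sqle, with replicate 2 highest and replicate 3 lowest, and no DHT animal reached them. Lss had a log2 fold change of -3.11 ± 0.87 (SE), with an adjusted p of 0.245, and without CTL replicate 3 the value was -3.93, with an adjusted p of 0.0525, and was called lower. A second Lss probe set (1368086_a_at) was near background on all 3 DHT arrays and on 2 of the CTL arrays. It gave -0.68, with an adjusted p of 0.582, and because of the background its difference is only a bound, at least 1.22-fold lower in DHT.

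Cyp51 encodes the cytochrome P450 that removes the first methyl group of lanosterol. It read 6.0, 6.23 and 6.59 in DHT replicates 1, 2 and 3 and 8.72, 10.13 and 9.27 in CTL replicates 1, 2 and 3 (probe set 1367979_s_at). The lowest CTL value was 2.13 log2 units above the highest DHT value, and the CTL animals differed less among themselves (SD 0.709) than for any other of the enzymes. In the fit Cyp51 was at -3.10 ± 0.39 (SE), with a 95% interval from -4.10 to -2.10 and an adjusted p of 0.0629, which corresponds to a geometric mean 8.56 times as high in CTL. The second Cyp51 probe set (1387020_at) read 4.87, 4.97 and 5.18 in DHT and 6.88, 8.47 and 6.03 in CTL. There CTL replicate 3 was the lowest control rather than replicate 1, and the difference of -2.12 ± 0.63 was not called (adjusted p = 0.274). The call of Cyp51 was also lost after quantile normalization (adjusted p = 0.116) and for the mean of its 2 probe sets (adjusted p = 0.102).

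Tm7sf2 encodes the sterol reductase that acts on the product of Cyp51. It read 2.62, 2.62 and 2.56 in DHT, which was near background on all 3 arrays, and 5.79, 7.91 and 7.14 in CTL replicates 1, 2 and 3, which was above background on all 3. The DHT values were therefore a ceiling, and Tm7sf2 was at least 18.7-fold lower in DHT than in CTL. The fitted log2 fold change was -4.34 ± 0.55 (SE), with an adjusted p of 0.0628. Lbr, the lamin B receptor, carries the same reductase activity in many tissues. It was near background on all 6 arrays, at 2.37 to 2.41 in DHT and 2.43 to 2.47 in CTL, and was not called (adjusted p = 0.896).

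Msmo1, Nsdhl and Hsd17b7 act in turn to remove the remaining methyl groups: Msmo1 is the oxidase, Nsdhl the dehydrogenase that releases the carbon, and Hsd17b7 the reductase that restores the hydroxyl group. Hsd17b7 had the largest difference of the 9 enzymes above background in both groups, and that of Tm7sf2 is only a lower bound and cannot be ranked against it. It read 3.97, 4.25 and 4.23 in DHT and 7.62, 11.48 and 10.25 in CTL replicates 1, 2 and 3. The gap between the groups was 3.36 log2 units, and the CTL animals spread over 3.87 units. The means were 4.15 ± 0.16 in DHT and 9.78 ± 1.97 in CTL (SD, n = 3 each). The log2 fold change was -5.64 ± 1.0 (SE), a ratio of 49.7, and its adjusted p of 0.106 was just outside the 10% limit.  The second Hsd17b7 probe set (1387233_at) read 2.91, 2.95 and 3.00 in DHT and 5.63, 9.31 and 7.64 in CTL, in the same order of CTL animals, with a log2 fold change of -4.57 and an adjusted p of 0.132. Hsd17b7 was called lower with dim probe sets left out of the fit (adjusted p = 0.0813) and without CTL replicate 1 (adjusted p = 0.0511).

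Msmo1 read 6.09, 6.42 and 6.15 in DHT and 10.42, 11.83 and 7.98 in CTL replicates 1, 2 and 3. The DHT animals were within 0.333 log2 units of each other, whereas CTL replicate 3 was far below the other controls and still above every DHT animal. The log2 fold change was -3.85 ± 0.99 (SE), with an adjusted p of 0.205, and without CTL replicate 3 it was -4.90, with an adjusted p of 0.0269, and was called lower. Nsdhl read 4.47, 4.29 and 4.47 in DHT and 5.60, 7.73 and 7.80 in CTL. It was the 1 enzyme with its highest CTL value in replicate 3, and its lowest was in replicate 1. The log2 fold change was -2.63 ± 0.64 (SE), with an adjusted p of 0.180, and without CTL replicate 1 it was -3.36, with an adjusted p of 0.0190, and was called lower. Its second probe set (1392988_at) also had its lowest control in CTL replicate 1 and gave -2.02, with an adjusted p of 0.198.

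Ebp moves a double bond within the sterol ring, Sc5d adds another, and Dhcr7 removes the last one to leave cholesterol. Ebp read 4.58, 4.46 and 4.43 in DHT and 6.02, 7.96 and 5.54 in CTL replicates 1, 2 and 3. The groups did not overlap, and the log2 fold change was -2.02 ± 0.65 (SE), with an adjusted p of 0.313. Sc5d read 5.42, 5.28 and 5.55 in DHT and 5.85, 8.19 and 8.07 in CTL. CTL replicate 1 was only 0.296 log2 units above the highest DHT animal, and the other 2 controls were far above it. Sc5d had a log2 fold change of -1.95 ± 0.67 (SE), with an adjusted p of 0.350, and without CTL replicate 1 it was -2.71, with an adjusted p of 0.0289, and was called lower. The other Sc5d probe sets, 2 in number, gave similar sizes. Probe set 1389111_at gave -1.81 with an adjusted p of 0.130 and the same order of the controls. Probe set 1387926_at gave -2.10 with an adjusted p of 0.481, and there CTL replicate 3 was the lowest control, near background at 3.07.

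Dhcr7, the last enzyme, had the smallest difference of the 10 and was the only one whose groups overlapped. It read 8.11, 8.19 and 9.45 in DHT and 10.03, 10.17 and 8.68 in CTL replicates 1, 2 and 3. DHT replicate 3 stood above CTL replicate 3, and each was the sample of its group nearest to the other group. The means were 8.58 ± 0.75 in DHT and 9.63 ± 0.83 in CTL (SD, n = 3 each). The log2 fold change was -1.04 ± 0.57 (SE), with an adjusted p of 0.598. Its 95% interval, from -2.48 to 0.40, held both no difference and one of the size seen for Ebp and Sc5d.

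**Figure D2:**
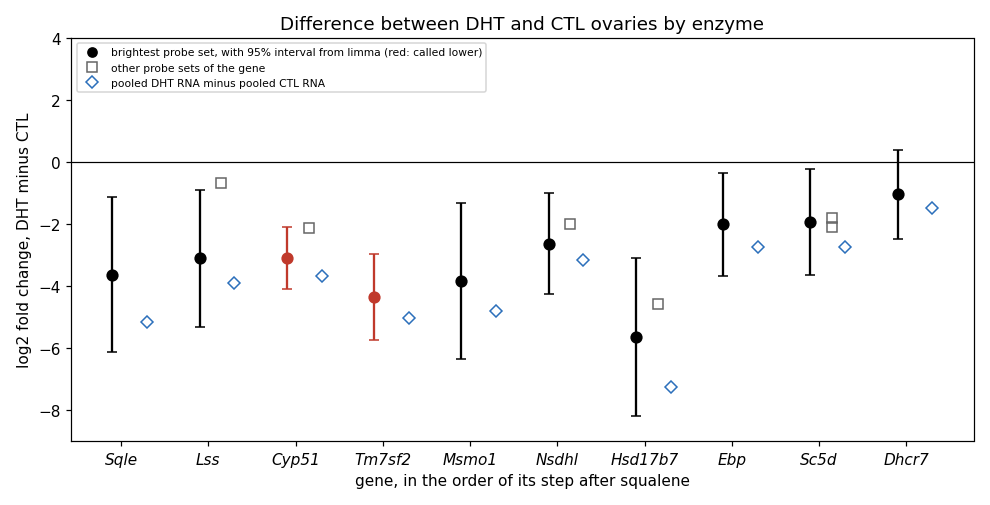
Log2 fold change (DHT minus CTL, vertical axis) of each enzyme in pathway order, with the 95% interval from limma for the brightest probe set (n = 3 each). Circles are the brightest probe set (red where called lower), squares the other probe sets of the gene, and diamonds the pooled DHT array minus the pooled CTL array. All points lie below 0, from -0.68 for the second Lss probe set to -7.28 for the pooled arrays of Hsd17b7, and among the intervals drawn that of Dhcr7 alone crosses 0.

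The 6 further probe sets, of Lss, Cyp51, Nsdhl, Hsd17b7 and Sc5d, all had a negative log2 fold change and groups that did not overlap, and 0 of them were called in limma. For Lss probe set 1368086_a_at and Sc5d probe set 1387926_at, CTL replicate 3 was the lowest control, at 2.47 and 3.07. Both values were below the background of that array, 3.09, so the lack of overlap there is not a separation above background. Their positions along the transcripts were not analysed here. Probe sets of Cyp51 and Sc5d disagreed on which control animal was lowest, and those of Lss, Nsdhl and Hsd17b7 had the same one lowest.

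The spread lay mostly among the controls. For 10 of 10 enzymes the SD of the CTL animals was above that of the DHT animals. The median SD was 1.30 log2 units (0.709 to 1.97) in CTL and 0.168 (0.039 to 0.749) in DHT. The lowest DHT SD was that of Tm7sf2, near background. The share of all genes with this order was not counted, so the order cannot be called particular to the enzymes. Outside them, Cyb5r3 had the same order (1.95 in CTL, 0.21 in DHT) and Star the opposite (0.57 and 1.83). These 2 genes were named after their values were seen. CTL replicate 2 was the highest control for 9 enzymes. The lowest control was replicate 3 for Sqle, Lss, Msmo1, Ebp and Dhcr7 and replicate 1 for Cyp51, Tm7sf2, Nsdhl, Hsd17b7 and Sc5d, so that the enzymes divided into 5 and 5. Over the 10 enzymes, CTL replicates 1, 2 and 3 exceeded the DHT mean by a median of 2.75, 4.33 and 2.20 log2 units. CTL replicates 1 and 2 were above every DHT animal for 10 enzymes and CTL replicate 3 for 9. Leaving out CTL replicate 1 gave 5 enzymes called lower (Cyp51, Tm7sf2, Nsdhl, Hsd17b7 and Sc5d), leaving out CTL replicate 3 also gave 5 (Cyp51, Tm7sf2, Sqle, Lss and Msmo1), and leaving out CTL replicate 2 gave 0 in limma, with 8 enzymes still lower at an unadjusted p under 0.05. CTL replicate 3 was also the control with a Gapdh 3' to 5' difference like that of the DHT animals. With that difference as a covariate, the enzymes lowest in CTL replicate 3 had smaller log2 fold changes, of -1.77 for Sqle, -1.65 for Lss, -1.89 for Msmo1, -1.18 for Ebp and -0.34 for Dhcr7, all at an unadjusted p above 0.05. The others had -3.10 for Cyp51, -4.59 for Tm7sf2, -3.45 for Nsdhl, -6.20 for Hsd17b7 and -2.73 for Sc5d, all 5 at an unadjusted p under 0.05. Because the Gapdh difference separated the groups except for CTL replicate 3, this fit leans on that array, a smaller value for enzymes low there follows from its construction, and the part of the Gapdh difference cannot be told apart from the group.

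**Figure D3:**
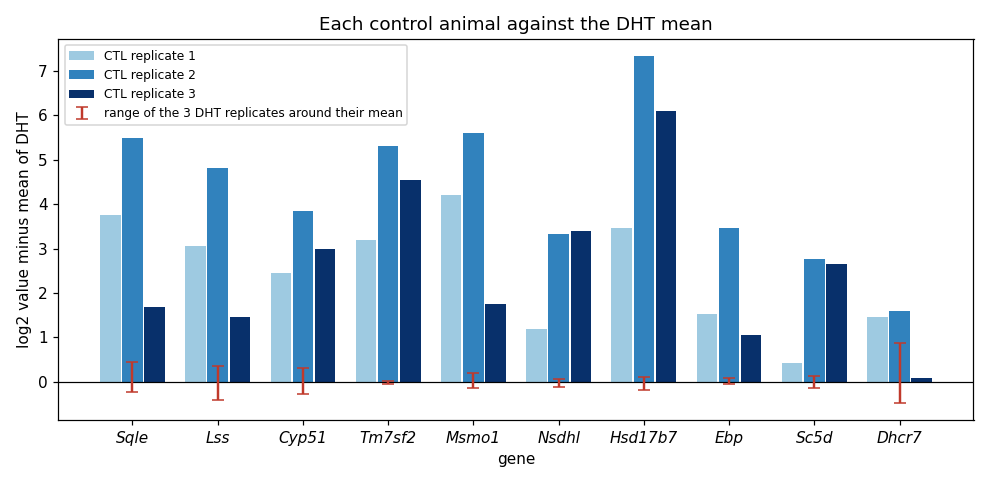
Log2 value of each CTL animal minus the mean of the 3 DHT animals (vertical axis), by enzyme, as bars from 0, with the range of the DHT animals around their mean in red. CTL replicate 2 is the highest bar for 9 of the 10 enzymes, and the lowest bar is CTL replicate 1 for 5 and CTL replicate 3 for the other 5.

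The arrays of pooled RNA hold RNA of the same animals and were used as a technical check, with no test. The pooled DHT array was below the pooled CTL array for 10 of 10 enzymes, with differences from -7.28 (Hsd17b7) to -1.49 (Dhcr7) and a median of -3.80. The pooled DHT values differed from the log2 of the mean linear level of the 3 DHT animals by -0.18 to 0.18. The pooled CTL values were above that of the 3 CTL animals for every enzyme, by 0.22 (Nsdhl) to 0.77 (Hsd17b7). The pooled value was within the range of the single animals for 8 enzymes in DHT and 9 in CTL.

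Of the enzymes before squalene, 7 of 9 listed were measured, all 7 had a negative log2 fold change, 6 had groups that did not overlap and 0 were called in limma, although 5 were lower by 2-fold or more at an unadjusted p of 0.05 or less. Their median log2 fold change was -2.30. The named members of this list were chosen after their values were seen. Idi1, the isomerase of isopentenyl diphosphate, had the largest difference, -4.17 with an adjusted p of 0.119, and Pmvk, phosphomevalonate kinase, was the 1 gene whose groups overlapped, at -0.93 with an adjusted p of 0.597. Of the alternative reductases and partner proteins of the sterol enzymes, such as the electron donors Por and Cyb5a, 9 of 10 were measured, with a median of -0.048. Of those measured, 5 were negative, 2 with the DHT animals wholly below the CTL animals and 1 the other way. The 2 were Por and Lbr, and Lbr was near background in both groups. None of these 9 was called in limma, and 1 of them, Por, chosen after its value was seen, had an unadjusted p under 0.05, at -0.79 with an adjusted p of 0.277.

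Of the genes for sterol sensing and uptake, 8 of 10 were measured and 1 was called, Stard4, a cytosolic carrier of cholesterol, which fell in DHT ovaries. It read 3.93, 3.91 and 3.93 in DHT and 6.18, 7.15 and 6.48 in CTL replicates 1, 2 and 3. Stard4 differed by -2.68 ± 0.26 (SE), with an adjusted p of 0.0508. The median of the list was -0.59, with 6 of 8 negative. Insig1, which holds the sterol regulatory element-binding proteins in the endoplasmic reticulum and is itself one of their targets, was at -3.43 with an adjusted p of 0.107, and Srebf2, which encodes such a protein, overlapped between the groups, at -0.97 with an adjusted p of 0.849. These 2 genes were named after their values were seen.

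Markers of the corpus luteum moved in the same direction as the sterol enzymes. All 10 measured of 11 listed had a negative log2 fold change, 9 with groups that did not overlap and 7 at an unadjusted p of 0.05 or less and 2-fold or more, with a median of -2.73, and 0 were called in limma. The log2 of their summed level was 10.94 to 13 in DHT and 13.84 to 15.3 in CTL. Ptgfr was near background on all 3 DHT arrays and Rln1 on 1. Fdx1, the electron donor of the side-chain cleavage enzyme and the marker with the highest mean, read 11.18, 11.40 and 9.51 in DHT and 12.72, 12.88 and 11.54 in CTL (adjusted p = 0.405). In ovary RNA, fewer luteal cells and less RNA per cell cannot be told apart. The median of the luteal markers was lowest by far in DHT replicate 3, at 6.26 beside 8.85 and 9.67 in DHT replicates 1 and 2. Ptgfr, near background, did not follow, at 2.23, 2.26 and 2.24 in DHT replicates 1, 2 and 3. In the same order the theca cell marker Cyp17a1 read 10.78, 9.95 and 7.62, and Insl3, another, read 6.31, 6.19 and 6.99. The median of the theca cell markers was 7.21, 7.25 and 7.22, and that of the 10 sterol enzymes was 4.53, 4.38 and 4.45. The highest DHT value was in replicate 3 for 4 enzymes (Lss, Cyp51, Sc5d and Dhcr7), in replicate 1 for 3 and in replicate 2 for 3. The part of the luteal cells in the difference between the groups was not tested.

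Markers of other cells went both ways. Over all 31042 probe sets tested, 320 were called in either direction, 109 of them lower and the rest higher. Of 6 granulosa cell markers measured of 7 listed, 5 had a higher mean in DHT and 1, Inhba, a subunit of inhibin and activin, rose (1.45, adjusted p = 0.0692), with a median of 1.21. Cyp19a1, the aromatase gene, was the 1 marker with a lower mean in DHT, and it was named after its value was seen, at -2.91 (adjusted p = 0.404). The log2 of their summed level was 13 to 13.27 in DHT and 11.66 to 12.25 in CTL, and Inha, the marker with the highest mean, was at 1.79 (adjusted p = 0.265). All 4 theca cell markers measured of 5 listed had a higher mean in DHT, with a median of 2.34, and Insl3, a theca hormone, rose (3.11, adjusted p = 0.0575). Their summed level on the log2 scale was 8.98 to 11.05 in DHT and 6.37 to 8.52 in CTL, and Cyp17a1, the androgen-forming enzyme, was at 2.65 (adjusted p = 0.418). Among 6 macrophage markers, 5 had a lower mean in DHT, with a median of -0.45, Ctss, a lysosomal protease, fell (-1.16, adjusted p = 0.0994), and the summed level was 7.34 to 7.49 in DHT and 7.68 to 8.70 in CTL. Of 5 oocyte markers measured of 6 listed, Zp2, a protein of the zona pellucida, rose (1.55, adjusted p = 0.0870), whereas 3 had a slightly negative log2 fold change, the median was -0.0044 and 2 were near background in both groups, at a summed level of 6.09 to 6.58 in DHT and 5.25 to 5.77 in CTL. Of 5 adipocyte markers, 4 were near background in both groups, none was called in limma, none had an unadjusted p under 0.05, and the fifth, Fabp4, was at -1.72 (adjusted p = 0.522), with a summed level of 4.83 to 4.87 in DHT and 5.04 to 6.79 in CTL. The part of these cells in the values of the sterol enzymes was not tested.

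**Figure D4:**
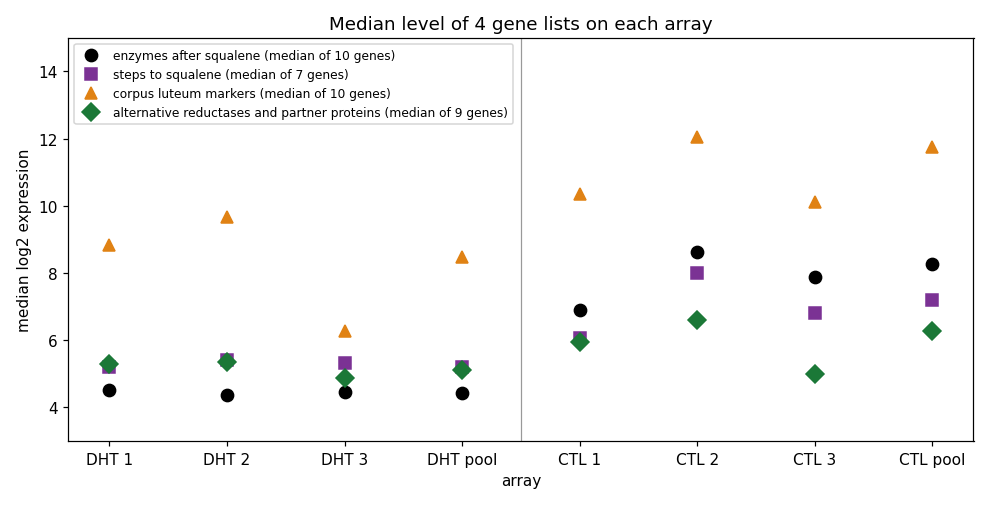
Median log2 expression (vertical axis) of 4 gene lists on each array, including the pooled arrays (horizontal axis), where each point is a median over the genes measured. The sterol enzymes after squalene lie between 4.38 and 4.53 in the DHT animals and between 6.88 and 8.63 in the CTL animals, and the luteal markers drop to 6.26 in DHT replicate 3.

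The enzymes had similar profiles over the 6 arrays. Pearson's r of each enzyme with the mean of the 10, each scaled to z-scores, was 0.984 for Cyp51 and 0.744 for Dhcr7, with Sc5d at 0.856 and Nsdhl at 0.897 and the other 6 between 0.943 and 0.967. These r are descriptions over 6 arrays in 2 groups, each enzyme is part of the mean, and the difference between the groups enters every r. Of the other genes, 4328 were above background on at least 3 of the 6 arrays and had an SD of at least 0.5 over them, which a gene could meet through the CTL arrays alone. The 8 with the highest r were Xpnpep2 (0.996), a membrane aminopeptidase, Dnaja4 (0.995), a cochaperone, Nap1l5 (0.988), Cptp (0.985), a transfer protein for ceramide phosphate, Pdlim4 (0.985), Kalrn (0.984), Pfkfb3 (0.983), a regulator of glycolysis, and Elapor1 (0.980). Elapor1 was near background on all 3 DHT arrays and Xpnpep2 on 2. In that order Acat2, the first enzyme of the pathway to squalene, ranked 10, Stard4 ranked 18, Mvd 24, Insig1 29, Fdps 38, Idi1 41 and Fdft1 50, beside Mvk at 71 and Pmvk at 520. Among the luteal markers the highest rank was that of A2m, at 56, followed by Sfrp4 at 63 and Rln1 at 72, and Fdx1 ranked 368.

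A promoter window was found in the RefSeq tables for 9 of the 10 enzymes, all but Sqle. An exact match to TCACNCCAC was in 0 of the 9 windows and in 1.12% of all 33469 windows of the same length, and a match with up to 1 mismatch was in 5 of 9 and in 23.7% of all. CCAAT was in 7 of 9, not in Cyp51 and Dhcr7, and in 37.5% of all, and GGGCGG was in 8 of 9, not in Nsdhl, and in 33.1% of all. The E-box CACGTG was in 1 of 9, Sc5d, and in 6.42% of all, and CAAGGTCA, the half-site of the NR5A receptors of steroid-forming cells, was in 0 of 9 and in 1.52% of all. Both strands were searched, and no match overlapped a match to another motif. The windows of the 9 enzymes held 57.3% to 71.0% G and C, with a median of 65.7%, beside 51.7% over all windows, so that GC-rich letters are more frequent in them. Both called genes, Cyp51 with a sterol response match and no CCAAT and Tm7sf2 with CCAAT boxes and no such match, differed in these letters, and Dhcr7, the enzyme with the smallest difference, held GC boxes only.

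**Figure D5:**
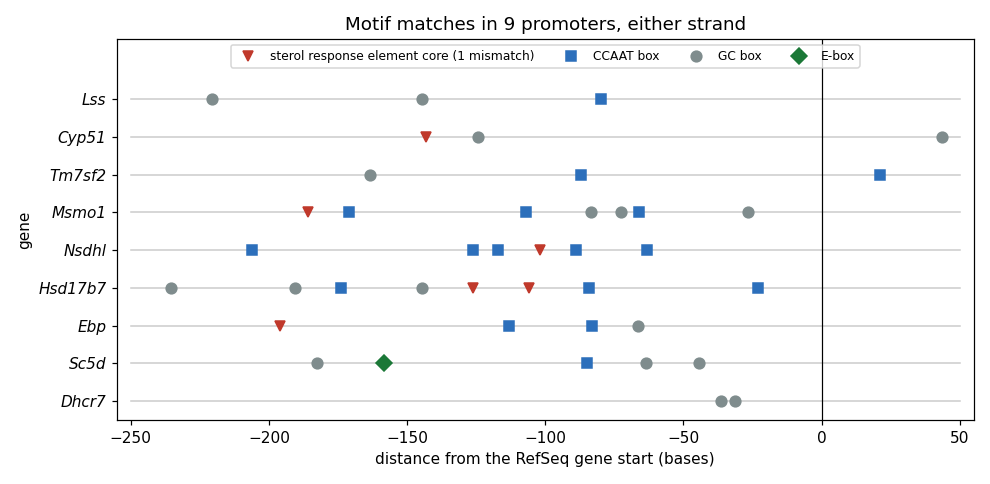
Position of motif matches on either strand in the promoter windows of 9 enzymes, as distance in bases from the RefSeq gene start (horizontal axis, start at 0). Matches to the sterol response element core with 1 mismatch are in 5 of the 9 windows, all of them upstream of the start, CCAAT boxes in 7 and GC boxes in 8.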

How the data were processed

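The authors isolated total ovarian RNA, amplified and biotin-labelled it, and applied GCRMA, in which background is removed by probe base composition, arrays are adjusted to each other and probes are summarized. The deposited table holds 1 log2 value for each probe set and was used as given. No raw data were processed, and GCRMA can compress differences near background. Levels of different probe sets are not on 1 scale, so sums and medians over a gene list were compared only between arrays, and the marker with the highest mean served only to choose a name. Gene names came from the array annotation, of which 20826 of 31042 probe sets carried 1 symbol, updated by Entrez gene to GRCr8 RefSeq names for 20758, and 57 controls were left out. A gene stood for its brightest probe set over the 6 single-animal arrays.

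The 3 DHT and 3 CTL arrays were compared with limma 3.58.1 (lmFit, then eBayes) under R 4.3.3, and p-values were adjusted by Benjamini-Hochberg over 31042 probe sets, and adjusted p-values are from this fit unless another setting is named. The limits were a fold change of 2, p of 0.01 and a false discovery rate of 10%, as the study states. At these limits the study reported more transcripts than were called here, and it listed most of these enzymes as repressed. It also measured Hsd17b7 by quantitative PCR on the RNA samples of the arrays and reported it significantly lower in DHT. The study does not state in words whether the pooled arrays entered its fit. Its total is far closer to the 966 probe sets, 433 of them lower, called here with the pooled arrays as replicate 4. Its array fold changes of Star and Rln1, named here after their values were seen, exceed the 13.4 and 85.8 of the 6-array fit. With 3 against 3 animals, an exact permutation test of a single value cannot go below p = 0.1. A probe set was near background at or below the chemoreceptor percentile of its array, and a fold against a group near background on all its arrays is a lower bound. The extraction protocol in the labels names 3 independent ovaries per group, and the number of arrays limits the precision. The labels give no extraction or scan batch. The members, the gene lists, the rule for named genes and the alternatives were chosen with earlier results of these data known. The named genes were the 10 enzymes, called genes of the other lists, Lbr, the marker of each list with the highest mean and the 8 genes most like the enzymes' mean profile, with exceptions marked in the text. Motifs were counted in RefSeq promoters of GRCr8 with Python 3.11.15. Alternatives tried were each array left out, array weights, the Gapdh covariate, median scaling or quantile normalization, a fit without dim probe sets, a variance trend, the replicate block, the pooled arrays as replicate 4, other limits and the mean of all probe sets. The fit was tested on simulated data.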

Additional observations from a re-analysis of the deposited data

How the results depend on the processing

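The direction of the 10 enzymes was negative under every alternative run. The number of enzymes called lower in limma, 2, became 9 with the pooled arrays as replicate 4, 7 with array weights (CTL replicate 3 weighted 0.028 and the others 1.07 to 7.76), 1 after quantile normalization and with the mean of all probe sets, and 0 at a false discovery rate of 5%. At an unadjusted p of 0.05 and a fold change of 2 it was 9. Leaving out single animals gave 0 to 5 enzymes called, 0 without any 1 of the DHT animals or without CTL replicate 2 and 5 without CTL replicate 1 or 3. At an unadjusted p under 0.05, 7, 7 and 8 enzymes were lower without DHT replicates 1, 2 and 3 and 8 without CTL replicate 2. The median log2 fold change of the enzymes, -3.10, was between -3.80 (pooled arrays alone) and -2.31 (Gapdh covariate) under all alternatives. The number of probe sets called in either direction, 320, became 966 with the pooled arrays as replicate 4, 173 after quantile normalization, 61 with a mean-variance trend, 1874 with array weights, 3747 with the Gapdh covariate, 28 at a false discovery rate of 5%, 581 without the fold limit, 1117 at an unadjusted p of 0.05 and a fold change of 2, and 0 to 1622 without single animals. Where it was 0, without a DHT animal, 2529 to 2623 probe sets had an unadjusted p under 0.05. In the pooled-array fit the same RNA counts again, so its spread is too small. Same-numbered animals deviated from their group means with correlations of -0.0743, 0.443 and 0.342, and 3 of the 6 samples correlated best with their own number, so the numbers were not taken as pairs. With the replicate block, limma called 0 enzymes and 0 probe sets, with 9 enzymes and 3817 probe sets at an unadjusted p under 0.05. With 3 animals a group and GCRMA values near background for Tm7sf2 and the second Lss probe set in DHT, the size of those differences is only bounded.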
